A study of Homo sapiens with 11 samples.

Results

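Complement is a cascade of plasma and membrane proteins that tags surfaces for removal and can lyse them. The transcripts of 9 complement genes were examined in lung adenocarcinoma cells on expression arrays: the components C3 and C5, the proteases CFB, C1R and C1S, the inactivating protease CFI, and the membrane regulators CD46, CD55 and CD59. The genes were taken by name, and all 13 probes whose RefSeq accession belongs to them were used, out of 42405 probes on the array and 20249 genes named through such an accession. C3, CFI, C1R and C1S had 2 probes each and the other 5 genes had 1, and the brighter probe by mean level over all 11 arrays is reported unless another is named.

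The cells were stable transfectants of A549 and HCC827, established human lines of lung adenocarcinoma. In each line, cells that had received the empty retroviral vector (mock) were compared with cells that had received the same vector carrying FLAG-tagged wild-type TRIM58 (TRIM58-WT), a ubiquitin ligase, under the viral promoter, and all had gone through G418 selection. There were 3 mock replicates of A549 on 4 arrays, 3 TRIM58-WT replicates of A549 on 3 arrays, and 2 mock and 2 TRIM58-WT replicates of HCC827 on 1 array each. The methods describe the isolation of clones, and the study calls the A549 lines clones and the HCC827 transfectants crude, so an A549 replicate may stand for 1 clone, and the p-values measure only the spread between these samples. Mock arrays 1-1 and 1-2 of A549 carry the same control cell in their labels and were averaged to 1 replicate.

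C3 is the component on which all activation routes meet, and C5 starts the terminal steps that end in a membrane pore. CFB supplies the protease of the alternative pathway, whereas C1R and C1S are the paired proteases of the classical pathway, in which C1R activates C1S and C1S cuts C4 and C2. CFI cuts and inactivates C3b and C4b on host surfaces with CD46 as a cofactor, CD55 speeds the decay of the enzymes that cleave C3 and C5, and CD59 blocks the pore. The liver makes most plasma complement, but lung epithelial cells, A549 among them, are known to make several components, and carcinoma cells commonly carry the membrane regulators.

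All levels are log2 signals relative to the 75th percentile of their array, so that 0 is a probe brighter than about 3 in 4 others and a difference of 1 is 2-fold. Spots count as well above background where the scanner software marked them so, and testing took in only the probes that passed this mark throughout 1 or more of the groups in question. The tests used limma and Benjamini-Hochberg adjustment across all probes tested, and a call needed both an adjusted p under 0.05 and a change of at least 2-fold.

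As raw signal, the 75th percentile stood at 90.5 to 103 on mock arrays 1-1, 1-2 and 2 and TRIM58-WT array 1 of A549, 56.6 to 62.5 on the array labelled mock 3 and on TRIM58-WT arrays 2 and 3, and 108 to 125 on the HCC827 arrays. Across 20641 probes, the array labelled mock 3 correlated with TRIM58-WT arrays 2 and 3 at r = 0.966 and 0.967, and with the other mock arrays at r = 0.953 to 0.963. It was also the only array on which the TRIM58 probe was well above background, while no array labelled TRIM58-WT passed, and it was not analysed here whether that probe lies within the coding sequence of the vector. The methods state that clones were checked for TRIM58 protein, a measure that is not analysed here. Each direction below is therefore that of the labels, and the A549 results are also given without the array labelled mock 3. TRIM58-WT replicates 2 and 3 of A549 differed with an SD of 0.34 (log2) across these probes, against 0.35 between mock arrays 1-1 and 1-2 of 1 control cell. The labels give them separate cell numbers and they were kept apart. The arrays lay on 2 slides, with all HCC827 arrays, mock 1-1, mock 2 and TRIM58-WT 1 on slide 1. Of 6 epithelial markers, CDH1, KRT7, KRT8 and KRT18 were well above background by their brightest probe on all 11 arrays, EPCAM was so on 9 and KRT19 on 8, with no A549 TRIM58-WT array among those 8. Of 4 leukocyte markers with a probe, CD68 passed on 11 arrays, CD14 on 9 and CD3E on none. PTPRC passed on 7 by its brightest probe only, while its other probes passed on 0 or 1. Of 4 fibroblast markers only LUM passed, on 3 A549 mock arrays. In a culture, fewer cells of a type and less RNA per cell cannot be told apart.

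The promoters of CFB and CD55 are shown because CFB had the largest change of the 9 genes in A549 and CD55 came closest to a call. Each window runs from 250 bases before to 50 bases after the transcription start in RefSeq, on build GRCh38.p14 and the plus strand. The CFB window is chr6:31945845-31946144 and the CD55 window is chr1:207321428-207321727. Capitals mark matches to 3 motifs searched on both strands, the NF-kB consensus, the GAS motif TTCNNNGAA of STAT factors and the ISRE motif (TTTC, any 2 bases, TTTC) of interferon-regulated factors.
CFB: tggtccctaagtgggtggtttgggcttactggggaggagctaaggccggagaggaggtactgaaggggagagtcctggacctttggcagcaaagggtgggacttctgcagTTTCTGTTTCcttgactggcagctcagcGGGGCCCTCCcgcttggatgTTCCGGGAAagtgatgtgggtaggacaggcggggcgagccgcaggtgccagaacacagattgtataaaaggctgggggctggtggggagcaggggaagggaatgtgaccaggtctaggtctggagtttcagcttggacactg
CD55: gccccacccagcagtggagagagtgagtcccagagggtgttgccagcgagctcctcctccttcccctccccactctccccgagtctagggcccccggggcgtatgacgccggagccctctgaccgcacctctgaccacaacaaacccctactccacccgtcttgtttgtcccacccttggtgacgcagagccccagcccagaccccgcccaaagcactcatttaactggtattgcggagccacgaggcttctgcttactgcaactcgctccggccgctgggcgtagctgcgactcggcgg

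The CFB window held an ISRE match 140 to 131 bases before the start, an NF-kB match 112 to 103 bases before it and a GAS match 92 to 84 bases before it, which did not overlap each other. The CD55 window held none of the 3. Over 35116 promoter windows of the same length, 11.3% held the NF-kB consensus, 7.66% the GAS motif and 3.57% the ISRE motif, and 12 windows held all 3. Of the 7 members with an entry in the promoter table, with 13 windows between them, C1R and CD59 also held a GAS match in some of their windows, and C5, CFI and CD46 held none of the motifs. C3 and C1S have no entry. These are matches of letters, with no measurement of binding.

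In A549, none of the 9 genes was called between TRIM58-WT and mock, against 6.92% of all 16923 probes tested. The median change was -1.29 (log2), beside 0.03 over all genes tested. Of the 9 changes 8 were negative, with CD59 at -0.02 and CFI at -0.22 among them. C5, CFB and CFI entered the test through mock and were not well above background throughout TRIM58-WT. Their part in the count and in the median is thus tied to the filter. CD55, with a change of -2.14, came closest to a call, and CFB had the largest change. At an unadjusted p under 0.05, limma passed 1 gene, CD55, against 25.3% of all probes tested by limma. The methods' t-test passed 0, and its share over all probes is not given here. The replicates within a group were far apart, and in the same way for all 9 genes: the array labelled mock 3 was the lowest of the mock replicates in 9 of 9 genes, and TRIM58-WT 1 was the highest of the TRIM58-WT replicates in 9 of 9. This order, noticed after the values were seen, held together for 9 of 9 genes and for 22.4% of all probes tested. Genes measured on the same arrays are not independent of each other.

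**Figure D1:**
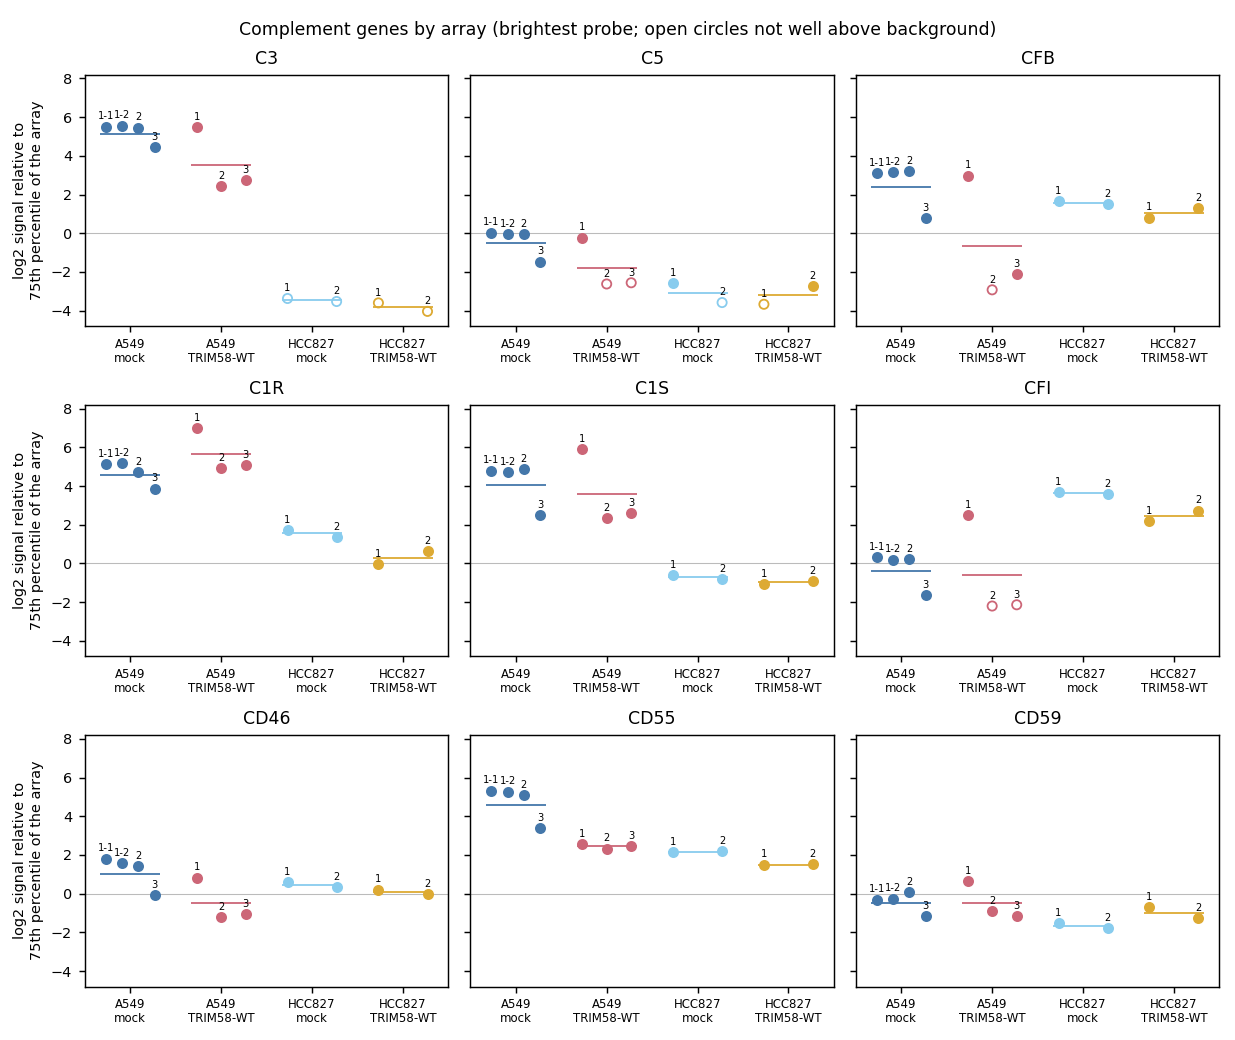
Log2 signal relative to the 75th percentile of the array (y axis) of each of the 9 genes in the 4 groups (x axis), 1 point per array labelled with its replicate, with lines at the mean of the replicates and open circles where the probe was not well above background. In A549 the array labelled mock 3 lies below the other mock arrays and TRIM58-WT 1 above TRIM58-WT 2 and 3 in all 9 panels, and only the CD55 panel shows A549 groups that do not overlap.

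C3 was bright in A549, at 5.51, 5.56 and 5.45 on mock arrays 1-1, 1-2 and 2, 4.43 on the array labelled mock 3, and 5.46, 2.42 and 2.75 in TRIM58-WT replicates 1, 2 and 3. TRIM58-WT 1 thus lay within the range of mock, and TRIM58-WT 2 and 3 lay below every mock array. The change was -1.59 (SE 0.82, adjusted p = 0.292 by limma), and the other probe gave -1.72 (adjusted p = 0.261). Without TRIM58-WT replicate 1 the change of C3 was -2.55 and passed (adjusted p = 0.0204), while without the array labelled mock 3 it did not. C5, which is cleaved by enzymes built on C3b, was at 0.04, -0.05 and -0.06 on mock arrays 1-1, 1-2 and 2 and at -1.47 on the array labelled mock 3. In TRIM58-WT it was at -0.23 in replicate 1 and at -2.62 and -2.56 in replicates 2 and 3, where it was not well above background. The groups overlapped, and the change of C5 was -1.29 (SE 0.74, adjusted p = 0.344), or -2.08 without TRIM58-WT 1 and -0.88 without TRIM58-WT 2.

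CFB, the protease subunit of the alternative pathway, had the widest spread. It was at 3.09, 3.15 and 3.20 on mock arrays 1-1, 1-2 and 2, at 0.77 on the array labelled mock 3, and at 2.97, -2.92 and -2.10 in TRIM58-WT replicates 1, 2 and 3, with replicate 2 not well above background. TRIM58-WT 1 lay among the mock arrays, and the other TRIM58-WT replicates lay below all of them. The change of CFB was -3.05 (SE 1.59, adjusted p = 0.297). Leaving out TRIM58-WT replicate 1 brought it to -4.88 (adjusted p = 0.0266). CD46, the membrane cofactor for CFI, repeated the order at a smaller scale, with 1.82, 1.57 and 1.41 on mock arrays 1-1, 1-2 and 2, -0.07 on the array labelled mock 3, and 0.82, -1.21 and -1.05 in TRIM58-WT. Its change was -1.49 (SE 0.69, adjusted p = 0.240), and no replicate left out brought a call.

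In C1R, C1S, CFI and, as given below, CD59, TRIM58-WT 1 lay above every mock array. C1R, the protease that activates C1S, was at 5.13, 5.19 and 4.73 on mock arrays 1-1, 1-2 and 2, at 3.87 on the array labelled mock 3 and at 6.98, 4.94 and 5.08 in TRIM58-WT. It was the only gene of the 9 with a positive change, of 1.08 (SE 0.61, adjusted p = 0.339), and its other probe gave 0.58. With each replicate left out in turn the change of C1R ran from 0.43 (without TRIM58-WT 1) to 1.44 (without TRIM58-WT 2). C1S, its partner encoded on the same chromosome, 12, was at 4.79, 4.73 and 4.88 on mock arrays 1-1, 1-2 and 2, at 2.48 on the array labelled mock 3, and at 5.90, 2.33 and 2.60 in TRIM58-WT. Its TRIM58-WT replicates 2 and 3 were thus near the array labelled mock 3, and the change of C1S was -0.43 (adjusted p = 0.849). CFI was at 0.31, 0.19 and 0.22 on mock arrays 1-1, 1-2 and 2, at -1.66 on the array labelled mock 3, and at 2.50, -2.20 and -2.14 in TRIM58-WT, where only replicate 1 was well above background. The A549 change of CFI was -0.22 (SE 1.33, adjusted p = 0.941), a mean of values on opposite sides of mock. The dimmer probes of C1S and CFI were not tested in A549.

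CD55, the decay-accelerating factor, was the only one of the 9 genes whose A549 groups did not overlap, which held for 31.0% of all probes tested. It was at 5.33, 5.27 and 5.11 on mock arrays 1-1, 1-2 and 2, at 3.38 on the array labelled mock 3, and at 2.58, 2.33 and 2.45 in TRIM58-WT. The 3 TRIM58-WT replicates were close together (SD 0.12), while mock had an SD of 1.06. The change of CD55 was -2.14 (SE 0.50), and its limma adjusted p of 0.0503 fell just outside the threshold. Without the array labelled mock 3 the change was -2.75 and passed (adjusted p = 0.00105), but leaving out any other single replicate gave adjusted p-values of 0.0763 to 0.182. CD59, the inhibitor of the pore, was at -0.30, -0.26 and 0.06 on mock arrays 1-1, 1-2 and 2, at -1.18 on the array labelled mock 3, and at 0.64, -0.92 and -1.18 in TRIM58-WT. Its change was -0.02 (SE 0.55, adjusted p = 0.988), and its sign turned under quantile normalization (0.03) and normexp correction (0.11).

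**Figure D2:**
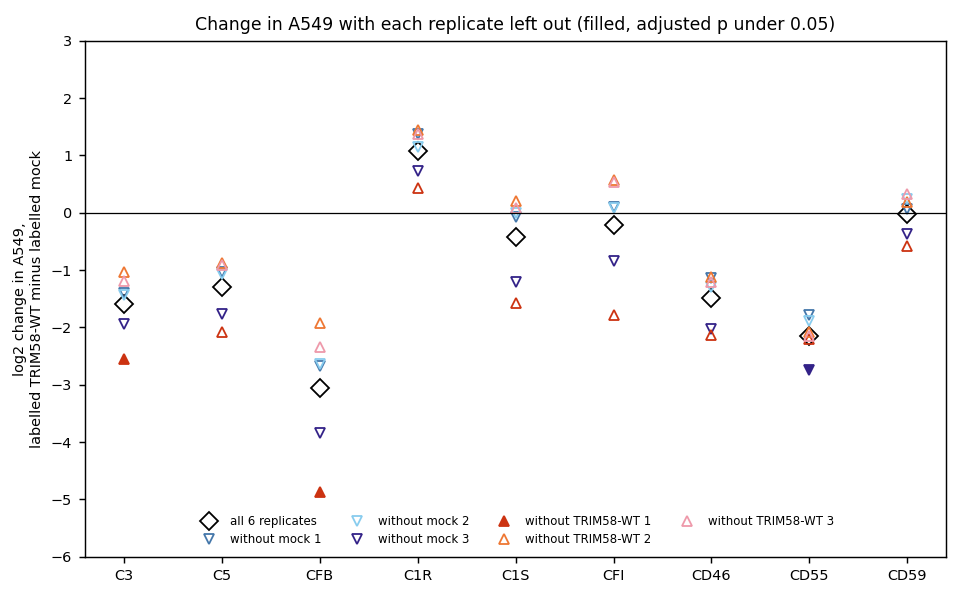
Log2 change in A549, TRIM58-WT minus mock by label (y axis), of each of the 9 genes (x axis) with all 6 replicates (diamonds) and with each mock (downward triangles) or TRIM58-WT (upward triangles) replicate left out, filled where the adjusted p was under 0.05. C3 and CFB pass without TRIM58-WT 1 at -2.55 and -4.88, and CD55 passes without mock 3 at -2.75.

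Without the array labelled mock 3, the A549 changes were -1.95 for C3, -1.77 for C5, -3.84 for CFB, 0.72 for C1R, -1.21 for C1S, -0.85 for CFI, -2.03 for CD46, -2.75 for CD55 and -0.38 for CD59. Each kept the sign it had with all replicates, and among them only CD55 passed.

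Both slides held A549 arrays of both labels, so the change was also taken within each. Within slide 1, TRIM58-WT 1 against mock arrays 1-1 and 2, 4 genes passed, against 20.4% of all probes tested there: CFI at 2.23 (adjusted p = 0.0143), C1R at 2.05 (0.0332), C1S at 1.07 (0.0421) and CD55 at -2.64 (0.0143). C3 and CFB differed there by only -0.02 and -0.17. This comparison has 1 TRIM58-WT array, which is assumed to vary like the mock arrays, so that its p-values rest on the spread between 2 mock arrays and say nothing of the spread among TRIM58-WT samples. Within slide 2, TRIM58-WT 2 and 3 against mock 1-2 and the array labelled mock 3, no gene was called, against 3.73% of all probes tested there, with changes of -2.41 for C3 (adjusted p = 0.0579), -4.47 for CFB (0.0671) and -1.93 for CD55 (0.169). The value of CD55 was thus negative on both slides, and CFI, C1S and CD59 (0.76 and -0.33) had opposite signs on them.

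In HCC827, none of the 7 genes tested was called, against 0.884% of the 19563 probes tested. C3 and C5 were not tested, since no group had either of them well above background throughout. The groups of 2 did not overlap for all 7 tested genes, which held for 56.6% of all probes tested. At an unadjusted p under 0.05, limma passed 4 of the 7 (CFI, C1R and CD55 lower, CD59 higher), against 20.3% of all probes tested by limma. The methods' t-test passed 1, and its share over all probes is not given here. The median change of the 7 was -0.51, beside 0.01 over all genes tested.

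For CFI the HCC827 samples went from 3.69 and 3.60 (mock) to 2.18 and 2.73 (TRIM58-WT), a change of -1.19 (SE 0.23, adjusted p = 0.103 by limma), and its other probe gave -0.87. For C1R the mock samples were at 1.73 and 1.37 and the TRIM58-WT samples at -0.04 and 0.65, a change of -1.25 (SE 0.29, adjusted p = 0.136), with -0.77 by its other probe. These were the largest changes of the 7, and both passed under a median shift of the arrays (adjusted p = 0.0331 and 0.0390). For CD55 the mock samples were at 2.13 and 2.18 and the TRIM58-WT samples at 1.49 and 1.51, with a change of -0.65 (SE 0.13, adjusted p = 0.105). CD59 moved the other way, from -1.53 and -1.77 in mock to -0.71 and -1.25 in TRIM58-WT, a change of 0.67 (SE 0.24, adjusted p = 0.228). CD59 was the only tested gene with a positive value in HCC827.

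The HCC827 mock samples had CFB at 1.65 and 1.49, and those of TRIM58-WT at 0.80 and 1.30 (change -0.51, adjusted p = 0.283). For CD46 the levels were 0.60 and 0.34 against 0.20 and -0.04 (change -0.39, adjusted p = 0.304). For C1S they were -0.59 and -0.82 against -1.06 and -0.90 (change -0.28, adjusted p = 0.380). All 3 changes were under 2-fold, with the TRIM58-WT samples just below the mock samples. C3 lay between -4.04 and -3.37 on the HCC827 arrays, not well above background on any of them, and C5 was well above background on 1 mock and 1 TRIM58-WT array.

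**Figure D3:**
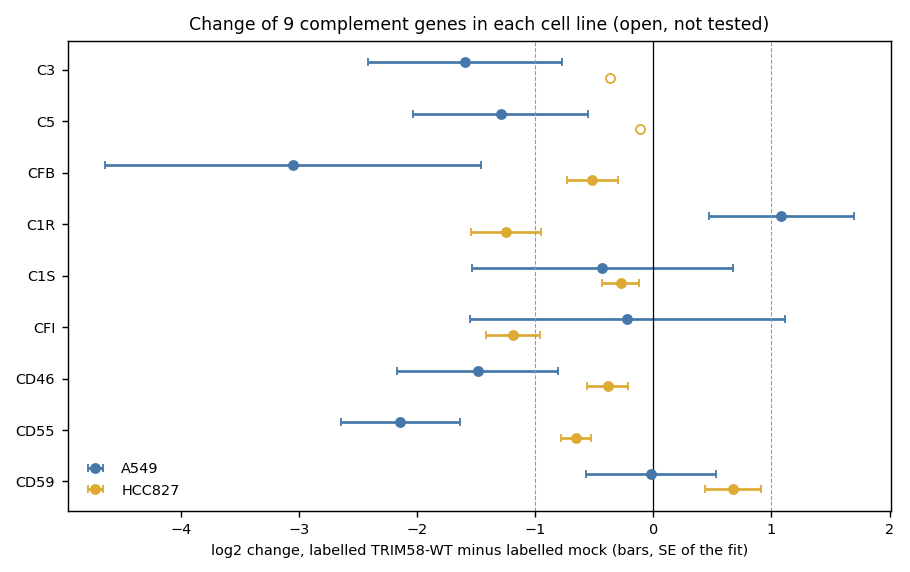
Log2 change, TRIM58-WT minus mock by label (x axis), of each gene (y axis) in A549 and HCC827, with bars for the SE of the limma fit, open circles for genes not tested and dashed lines at a 2-fold change. The SE of the HCC827 changes is 0.13 to 0.29 and that of the A549 changes 0.50 to 1.59, and C1R lies on opposite sides of 0.

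The difference between the changes of the lines was tested directly in a fit of all 4 groups, at an adjusted p under 0.05, and 0 of the 9 genes passed, against 3.86% of 20641 probes. C1R was the only gene with an unadjusted p under 0.05 there, against 18.4% of all probes, with a change 2.33 higher in A549 than in HCC827 (SE 0.89, limma adjusted p = 0.207). CD55 differed by -1.49 (SE 0.70, adjusted p = 0.305) and CFB by -2.53 (SE 2.22, adjusted p = 0.593). With SEs of 0.70 to 2.22, a 2-fold difference in the change, or 1 in log2, was less than 2 SE for all 9 genes. CD55 passed without the array labelled mock 3 (-2.10, adjusted p = 0.00144) and C3 without A549 TRIM58-WT replicate 1 (-2.18, adjusted p = 0.0488).

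Between A549 mock and HCC827 mock, 6 of the 9 genes were called, against 30.1% of the 19505 probes tested, and the replicates did not overlap for 7 of the 9, against 69.7% of all probes tested. C3, C5, C1R, C1S and CD55 were higher in A549 mock and CFI was lower. The comparison shares its A549 mock arrays with the changes above, so the same array labelled mock 3 enters it.

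C3 had the largest difference, with a mean of 5.14 ± 0.62 (SD, n = 3) in A549 mock, and both HCC827 mock arrays had it below the background mark. Against the lowest signal measured above background, C3 was at least 331-fold higher in A549 mock (adjusted p = 6.46e-05), and at least 82.6-fold by its other probe. The floor is the mean, per array, of the higher of that signal and the probe's own. C1S was 4.74 higher (log2; SE 1.09, adjusted p = 0.00798) with means of 4.04 ± 1.35 (n = 3) in A549 mock and -0.70 ± 0.16 (n = 2) in HCC827 mock. C1R was 3.03 higher (SE 0.63, adjusted p = 0.00486) and CD55 2.44 higher (SE 0.49, adjusted p = 0.00436). C3, C1R and CD55 stayed past the threshold with any 1 mock replicate left out.

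C5 was 2.57 higher in A549 mock (SE 0.79, adjusted p = 0.0293), but was above background on 1 of the 2 HCC827 mock arrays, and stayed called only without the array labelled mock 3. CFI was 4.04 lower in A549 mock (SE 1.31, adjusted p = 0.0366), with means of -0.39 ± 1.09 (n = 3) and 3.64 ± 0.06 (n = 2). Leaving out any 1 of the 5 mock replicates ended the call of CFI, with adjusted p-values of 0.0567 to 0.144, in the same direction. C1S lost its call without HCC827 mock replicate 2 (adjusted p = 0.0528). CFB (0.80, adjusted p = 0.711), CD46 (0.54, adjusted p = 0.550) and CD59 (1.19, adjusted p = 0.120) did not pass. Within slide 1, where mock 1-1, mock 2 and both HCC827 mock arrays lay, all 9 were called, against 33.5% of all probes tested there, with CFB at 1.58 (adjusted p = 0.00184), CD46 at 1.14 (0.00591) and CD59 at 1.53 (0.00417).

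**Figure D4:**
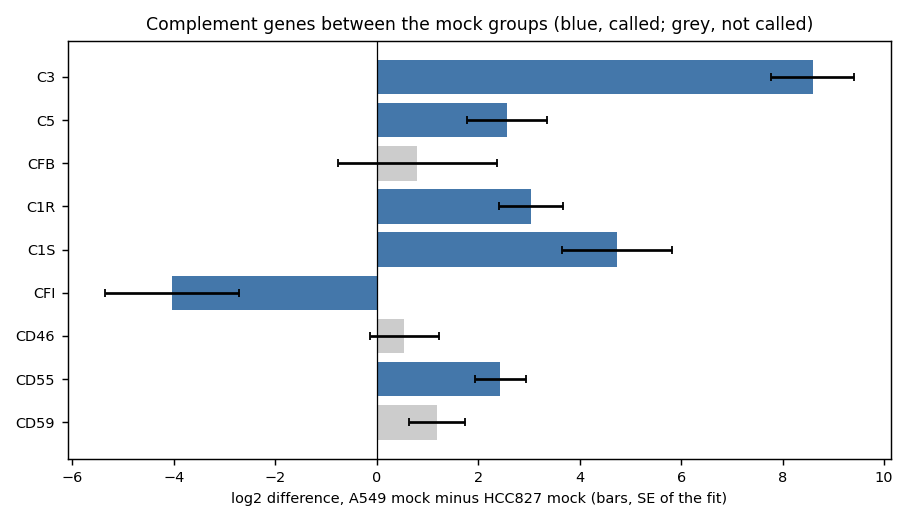
Log2 difference, A549 mock minus HCC827 mock (x axis), of each gene (y axis), as bars from 0 with the SE of the limma fit, blue where called and grey where not. C3 stands at 8.59, a measured difference against a probe not well above background in HCC827, and CFI is the only gene on the negative side, at -4.04.

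Across the 4 groups, the order of the means was A549 mock, A549 TRIM58-WT, HCC827 mock, HCC827 TRIM58-WT from high to low for C1S and CD55, and of these only CD55 had A549 groups whose ranges did not overlap. C3 and C5 also had A549 mock above A549 TRIM58-WT, with overlapping ranges, and their HCC827 groups, at or near background, have no order. For C1R, A549 TRIM58-WT came first, with overlapping A549 groups, and the HCC827 groups were lower. For CFI both HCC827 groups were above both A549 groups in their means, though A549 TRIM58-WT 1, at 2.50, lay between the HCC827 TRIM58-WT samples. CFB and CD46 had A549 mock highest and A549 TRIM58-WT lowest, and CD59 had HCC827 mock lowest.

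Of 46 other complement genes, 45 had a probe. In A549 none of the 9 tested was called between TRIM58-WT and mock (median change -0.76), against 6.92% of all probes tested. Some of them, VTN and COLEC11 included, entered through mock and were not well above background throughout TRIM58-WT, which weighs on that median. In HCC827, 1 of 12 tested genes was called, against 0.884% of all probes tested. This was CR2, the receptor for C3d on B cells, at -1.62 and -1.83 in mock and not well above background in TRIM58-WT, at least 3.12-fold lower (adjusted p = 0.0360). CR2 was also the 1 gene of 15 whose change differed between the lines (adjusted p = 0.00472), against 3.86% of all probes tested. No A549 array had CR2 well above background, and its A549 change of 0.12 lies at the floor. The difference between the lines thus rests on HCC827 mock, the group through which CR2 entered the test. The dimmer CR2 probe lay at -4.25 and -4.57 in HCC827 mock and at -5.71 and -5.40 in HCC827 TRIM58-WT. It stayed below the background mark throughout and was not tested, so the CR2 results rest on the brighter probe alone.

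Between the mock groups, 5 of 12 tested genes were called by their brighter probe, against 30.1% of all probes tested. CLU, a fluid-phase inhibitor of the pore, was 4.43 higher in A549 mock (adjusted p = 3.06e-07) and CFD, the protease that cuts CFB, was 3.15 higher (adjusted p = 0.00337). VTN, which also binds the terminal complex, was at least 21.5-fold higher in A549 mock (adjusted p = 0.00214), and COLEC11, a lectin of the lectin pathway, at least 4.18-fold (adjusted p = 0.000529). CR2 was at least 2.24-fold lower in A549 mock (adjusted p = 3.55e-05). C8G was called through its dimmer probe only, at least 2.49-fold higher (adjusted p = 0.0338). Between TRIM58-WT and mock in A549, CLU and CFD had changes of -0.16 (SE 0.16) and -0.39 (SE 0.62), which were not called.

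Of 20 acute-phase genes, whose plasma proteins rise or, as for ALB, TF and AHSG, fall in inflammation, 8 were tested in A549. Their median change was -3.68 with no positive value, and 2 were called, both lower, against 6.92% of all probes tested. Most of the 8 entered the test through mock and were not well above background throughout TRIM58-WT. The sign of their changes is thus tied to that filter. By their brightest probes, the genes not tested had changes from -1.55 to 1.40. FGB, a fibrinogen chain, was at 1.38, 1.30 and 1.12 on mock arrays 1-1, 1-2 and 2, at -0.86 on the array labelled mock 3, and not well above background in TRIM58-WT, at least 8.95-fold lower (adjusted p = 0.00543). FGA was called by both of 2 probes, at -3.65 (adjusted p = 0.0491) and at least 3.79-fold lower (adjusted p = 0.00109), and did not pass by the remaining one (adjusted p = 0.0564). In HCC827 none of 6 was called, against 0.884% of all probes tested, and 5 of the 6 changes were positive. The change of FGB differed between the lines (limma adjusted p = 0.00648). So did that of FGA by the probe at least 3.79-fold lower in A549 (0.00181), but not by its brightest probe (0.152). FGB was not well above background in A549 TRIM58-WT or HCC827 mock. That FGA probe passed the background mark only in A549 mock, so both differences rest partly on values near the floor. In A549 the same limma test called the epithelial markers EPCAM, KRT19 and KRT8 (by 2 of its 3 probes) lower in TRIM58-WT. The leukocyte marker CD14 was also lower, and KRT18 by its dimmer probe only (-1.22, adjusted p = 0.0216). CDH1 (-2.33, adjusted p = 0.0716), KRT7 (0.25, 0.724) and CD68 (-0.91, 0.0858) were not called. In units of the 75th percentile, the summed epithelial level overlapped, at 1508 to 2303 in A549 mock and 1095 to 1720 in TRIM58-WT. The sum of the 4 leukocyte markers was 3.78 to 4.90 in A549 mock and 1.62 to 2.05 in TRIM58-WT. In HCC827 it was 4.49 to 4.52 in mock and 6.30 to 7.25 in TRIM58-WT, with CD68 the brightest of the 4 there. The HCC827 change of CD68 was 0.63 and was not called (limma adjusted p = 0.138). The part of these genes in the values of the complement genes was not tested.

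The genes most like each member over the 10 replicates were found by Pearson's r among the probes that were well above background throughout 1 or more groups. These points share the line difference and the arrays, and r is given as a description. C3 was most like C1QTNF1 (r = 0.997) and RDX (0.997), CFB like GBA2 (0.975) and PSAP (0.970), and C5 like CRYAB (0.975) and RAB31 (0.973). C1R was most like PIGZ (0.990) and ADAMTS10 (0.989), C1S like LONRF2 (0.992) and WIPI1 (0.989), and CFI like FAM86B3P (0.983) and AFF1 (0.982). Among the membrane regulators, CD46 was most like XPR1 (0.990) and NPTN (0.979), CD55 like CEACAM3 (0.991) and KIT (0.984), and CD59 like LOC103344931 (0.988) and NDUFC2 (0.967).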

How the data were processed

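RNA of the 11 samples was labelled with Cy3 and hybridised in 1 colour to Agilent SurePrint human arrays. The authors scanned the arrays and deposited an intensity for each spot, already background-subtracted and detrended by the scanner software, with no scaling between arrays. The file headers name Feature Extraction 11.5.1.1, and the submitters' processing notes name 10.7. The deposited flags of the spots (a score of 0 or 1) mark those well above background, outliers and saturated spots. The authors also deposited a log2 table of the same arrays. Set against log2 of the processed intensity less the 75th percentile, 95.5% of its values lay within 0.01 after a baseline per probe, and it was used as an alternative only.

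Here, spots marked as outliers were dropped, which left 28 probe values missing, and the mean signal of the remaining spots of each probe was expressed as log2 less the array's 75th percentile over 42405 probes. A probe was well above background on an array when a share of over 0.5 of its spots was. Groups came from the labels alone. Tests were made with limma 3.58.1 (lmFit, eBayes) in R 4.3.3: each line alone for TRIM58-WT against mock, and all 4 groups for the difference between lines and for mock against mock. The plots come from matplotlib 3.10.9 under Python 3.11.15. Symbols came from a RefSeq table of GRCh38.p14, through which 27241 probes were named, and promoters from a RefSeq table of the same build. The array was designed on an earlier build, so no probe coordinates are given. Precision is limited by how many arrays there are.

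The members, the lists of genes and the alternatives were chosen with earlier results of these data known. The genes named are the 9 members, TRIM58, other complement genes with a called probe, the 5 acute-phase genes with the largest changes among those called in each line, and the 2 genes most like each member. The alternatives comprised a median shift, quantile normalization, normexp correction of the median spot signal (offset 50), 2 other filters, outlier spots kept, other sets of samples, the replicate number and slide as blocks, other uses of mock arrays 1-1 and 1-2, the authors' log2 table, the methods' t-test, other probes and each replicate left out. The averaging of A549 TRIM58-WT replicates 2 and 3 was added after the data had been seen. The fit was tested on simulated data with known changes.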

Additional observations from a re-analysis of the deposited data

How the results depend on the processing

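The count of members called in A549, 0 as reported, became 1 under a median shift, with all 4 groups in one fit, with slide as a random block, with mock arrays 1-1 and 1-2 kept separate and with mock array 1-2 alone, always CD55 (adjusted p = 0.00911, 0.0127, 0.00991, 0.0156 and 0.0491). It was 4 within slide 1 and 0 within slide 2, and 0 to 2 with each replicate left out. The HCC827 count became 2 under a median shift and stayed 0 with each replicate left out. The count of differences between lines was 0 to 1 with each A549 replicate left out. Within slide 1 that difference rests on 1 A549 TRIM58-WT array, and its count is not given. The count between mock groups fell from 6 to 3 with the methods' t-test and was 3 to 5 with each replicate left out. The cause was not tested. With A549 TRIM58-WT replicates 2 and 3 averaged, the counts in A549 and between lines stayed 0, and 333 probes were called in A549 in place of 1171. Of 16923 probes tested in A549, 1112 were called under a median shift and 1571 with all 4 groups in one fit. Slide as a random block gave 1843, mock arrays 1-1 and 1-2 kept separate gave 1729, and mock array 1-2 alone gave 1171.

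All changes of sign were among changes that were not called as reported. In A549, CD59 was at 0.0266 under quantile normalization, 0.0313 with slide as a random block, 0.11 under normexp and 0.76 within slide 1. CFI was at 0.26 under normexp and 2.23 within slide 1, and C1S at 1.07 within slide 1. With TRIM58-WT replicates 2 and 3 averaged, CFI, C1S and CD59 were at 0.56, 0.14 and 0.26. With single replicates left out, the A549 changes ran from -1.77 to 0.58 for CFI, -1.58 to 0.21 for C1S and -0.58 to 0.33 for CD59, and C5 in HCC827 from -0.62 to 0.39. For the difference between lines, C3, CFB, C1S and CD59 were at 0.35, 0.34, 1.35 and 0.0842 within slide 1, C1S at 0.42 with replicates 2 and 3 averaged, and with single replicates left out C1S ran from -1.30 to 0.49 and CFI from -0.59 to 1.76.

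The scaling moved the median change of all probes in A549 from 0.25 to -0.12 under a median shift, 0.01 under quantile normalization and 0.14 under normexp. The share of higher probes among those called fell from 50.5% to 25.6% in A549 and from 47.4% to 27.9% for the difference between lines under a median shift, and rose from 32.9% to 45.7% in HCC827. The number of probes called in A549 ran from 24 (the methods' t-test) and 297 (without mock replicate 1) to 2193 (without the array labelled mock 3), beside 1171 as reported, and in HCC827 from 0 (no filter, the replicate block, the methods' t-test, or without either mock replicate) to 633 (median shift), beside 173. The replicate numbers were not used as pairs in the main tests. The deviations of same-numbered A549 samples correlated at r = 0.50, -0.42 and 0.50 and those of HCC827 at 0.08. With so few replicates, whose deviations are tied to their group mean, these values cannot decide on a pairing. With the replicate block, 0 members were called in A549, HCC827 and between lines, and 1119, 0 and 323 probes. All 4 HCC827 arrays lay on slide 1, so no slide alternative applied there. Spots near background limit C3 and C5 in HCC827 and C5, CFB and CFI in A549 TRIM58-WT 2 and 3.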
